A study of Homo sapiens with 6 samples.

Results

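The genes described here are 10 members of the matrix metalloproteinase (MMP) family and of the tissue inhibitors of metalloproteinases (TIMPs), namely MMP1, MMP2, MMP3, MMP10, MMP14, MMP15, MMP19, TIMP1, TIMP2 and TIMP3, matched by gene name among the 58735 genes of the deposited count table. All 10 were found. The 3 bile acid libraries came from Het1A cells that were covered daily, on 5 days and for 10 min each time, with keratinocyte medium at pH 4.0 holding 100 µM of a mix of deoxycholic, glycodeoxycholic, glycochenodeoxycholic, glycocholic and taurocholic acid. The 3 control libraries came from Het1A cells given 0.1% DMSO, the solvent, and the labels do not say that their medium was acidified. Low pH, bile acids and the daily short exposure are stated for the bile acid group alone, so they cannot be told apart here. Serum was set to 1% for both groups 48 h ahead of treatment, and RNA was taken 24 h after the fifth exposure. Het1A is a single human line of oesophageal epithelial origin that was immortalised with the SV40 large T antigen. The labels call the libraries biological replicates without saying how the cultures were separated, so that p-values measure the spread between these libraries.

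MMPs are zinc-dependent endopeptidases that cut collagens, fibronectin, laminins and other parts of the extracellular matrix, and TIMPs bind their active sites one to one. Most MMPs are secreted as inactive proenzymes, while the membrane-type members sit at the cell surface. In epithelium they are known for their part in wound closure, shedding of surface proteins and invasion.

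Read totals were 27008714 to 28497721 in the bile acid libraries and 21006677 to 26218597 in the control libraries. Values within a gene are given in CPM, read counts relative to library size scaled by TMM factors, and levels of different genes in CPM per kb of gene length. A count of 3 in a library was taken as the floor, a limit of counting error only. Relative to raw read totals, without TMM factors, it was 0.105 to 0.111 CPM in bile acid and 0.114 to 0.143 CPM in control libraries. TMM-scaled CPM are on another scale, where 3 counts in control library 1 gave 0.108 CPM. Control library 2 stood apart, with a Pearson r of 0.890 to 0.928 across genes with each other library where all other pairs reached 0.974 to 0.986, and 19101 genes detected against 24174 to 25337 in the others. Values of members and lists that it moved most are also given without it.

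Of the defining markers of the line, KRT8 and KRT18, keratins of simple epithelia, measured 487 to 570 and 291 to 319 CPM with bile acid, against 325 to 654 and 193 to 658 CPM in controls. KRT5, KRT14 and TP63, which mark basal cells of the squamous oesophagus, were at or below 0.511 CPM in all 6 libraries. CDH1, the epithelial cadherin, was read at 7.57 to 21.01 CPM in bile acid and 6.50 to 17.4 CPM in control libraries, and the mesenchymal filament VIM at 174 to 213 CPM and 102 to 188 CPM. COL1A1, a fibroblast collagen, measured 92.9 to 231 CPM and 42.7 to 192 CPM, while PTPRC, the pan-leukocyte marker, had 0 counts everywhere and the endothelial PECAM1 stayed at or under 0.329 CPM. Other markers of these cell types were read. The 10 epithelial markers, of which 5 are named here, summed to 960 to 1177 CPM in bile acid and 685 to 1667 CPM in control libraries. In each library 7 to 9 of the 10 were at or above the floor. The 10 fibroblast or mesenchymal markers summed to 460 to 608 CPM and 330 to 513 CPM, with 6 to 7 of them at or above the floor. The 6 leukocyte markers summed to 9.20 to 16.1 CPM, with 1 to 2 of them at or above the floor in each library. The 5 endothelial markers summed to 0.336 to 2.12 CPM, with 1 to 3 at or above it.

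Among the 10 members, the summed messenger RNA per length of the 3 inhibitors exceeded that of the 7 proteases in every library. TIMP1 was the most abundant member per length, with 218, 295 and 319 CPM per kb in bile acid libraries 1 to 3 and 124, 432 and 144 CPM per kb in control libraries 1 to 3. It ranked between 71 and 234 among 17743 genes. TIMP2 followed at 43.4 to 50.7 CPM per kb in bile acid and 42.6 to 45.4 CPM per kb in control libraries, and then MMP14, the highest of the 7 MMPs, at 18.1 to 20.7 and 18.0 to 24.3 CPM per kb. This order of TIMP1, TIMP2 and MMP14 was the same in 6 of 6 libraries.

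Below them, TIMP3 and MMP15 lay at similar levels per length, 3.71 to 8.28 and 5.48 to 6.99 CPM per kb in bile acid libraries and 6.68 to 7.99 and 4.52 to 7.95 CPM per kb in control libraries. TIMP3 was the higher of the pair in 5 of 6 libraries, and their ratio ran from 0.530 to 1.48. MMP2 and MMP19 came next, at 1.36 to 2.04 and 1.18 to 1.63 CPM per kb in bile acid and 1.31 to 2.06 and 0.791 to 2.10 CPM per kb in control libraries. MMP2 was higher than MMP19 in 3 of 6 libraries, so neither pair can be ordered beyond its spread. MMP1 was the lowest member with counts in every library.

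**Figure D1:**
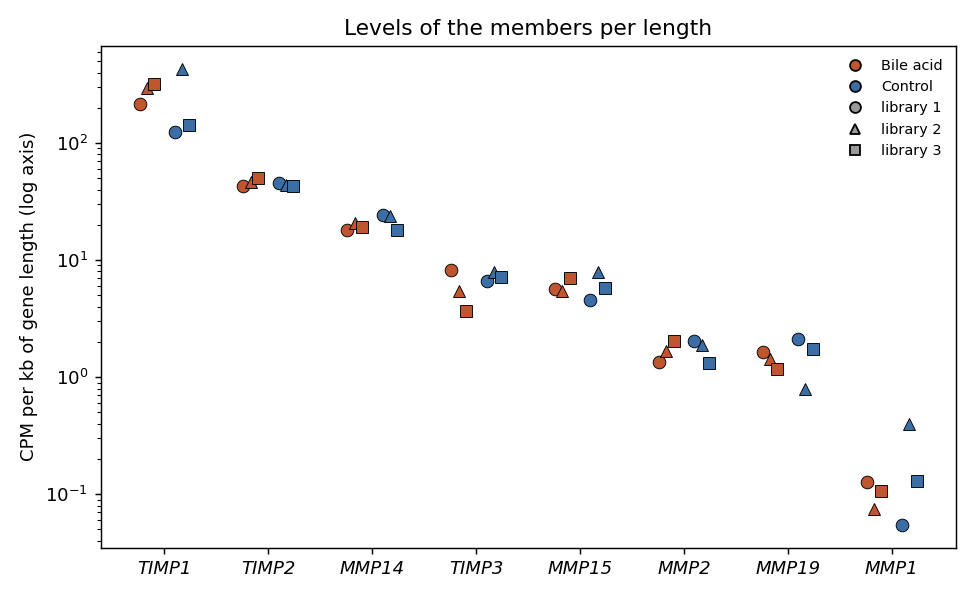
Level of 8 members in each library, in CPM per kb of gene length on a log axis, with bile acid libraries left of control libraries and a marker shape per library. TIMP1 lies between 124 and 432 CPM per kb, TIMP2 and MMP14 below it, and MMP1 at 0.398 or less, while MMP3 and MMP10, with 0 counts in most libraries, cannot be drawn on this axis.

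The summed level of the 3 TIMPs exceeded that of the 7 MMPs 9.99, 11.8 and 12.7 times in bile acid libraries 1 to 3 and 5.33, 13.9 and 7.17 times in control libraries 1 to 3. Control library 2 had the highest ratio of all, and the bile acid ratios lay between it and the other controls. TIMP1 alone made up 80.8% to 85.4% of the TIMP sum in bile acid and 70.4% to 89.3% in control libraries, and MMP14 65.0% to 70.4% and 66.8% to 73.4% of the MMP sum. The sums use members chosen with results known and were not tested. They were not corrected for the trend of control library 2 with gene length, described below. There, genes of about the length of TIMP1 had a median log2 CPM difference of 1.10 from control libraries 1 and 3. For genes of the lengths of the tested MMPs the medians were −0.052 to 0.016.

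No member differed past the threshold, an adjusted p under 0.05, between bile acid and control libraries. With edgeR's quasi-likelihood test on all 6 libraries, 7 members had enough counts to be tested, 0 were called, and 0 had an unadjusted p under 0.05. Over all 17743 genes tested edgeR called 0, which is 0% of them, with 588 at an unadjusted p under 0.05, or 3.31%. DESeq2 called 18 genes, 0.101% of 17782, all higher in bile acid libraries, and limma-voom 0, with 977 and 528 genes at an unadjusted p under 0.05. No member was among these calls. Of the 7 members 2 had a positive and 5 a negative log2 fold change, with a median of −0.046 beside −0.011 over all genes tested. In 0 of the 7 did the groups separate, where 5.29% of tested genes had every bile acid library above every control library and 4.89% every one below.

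**Figure D2:**
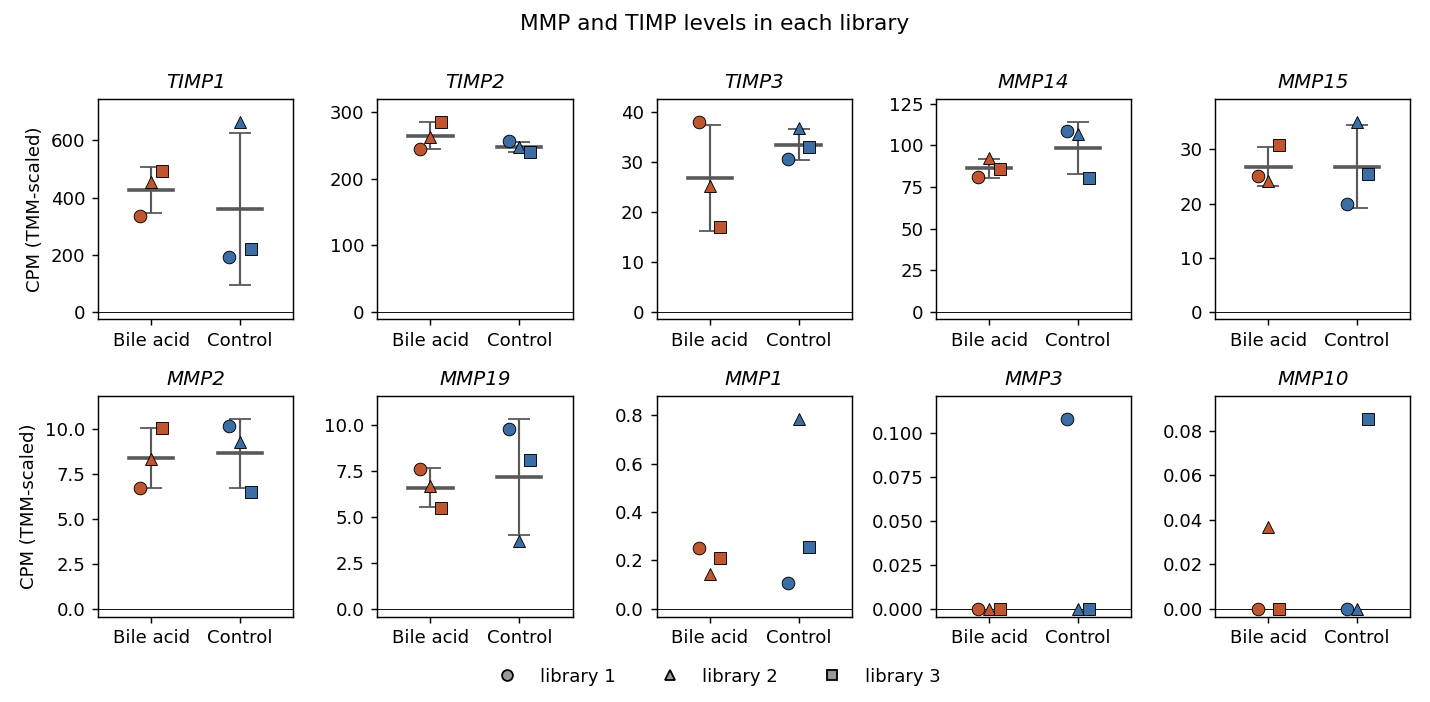
CPM of each of the 10 members in the 3 bile acid libraries, left, and the 3 control libraries, right, with a marker shape per library. Bars give the mean and SD of 3 libraries for the 7 tested members, and none are drawn for MMP1, MMP3 and MMP10, which have few counts. In each panel the groups overlap, and for TIMP1 the control library at 665 CPM lies above all others.

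TIMP1, the broad secreted inhibitor, acts on most soluble MMPs and only weakly on the membrane-type members MMP14 and MMP15. The gene lies on chromosome X, 47582313 to 47586789, plus strand, GRCh38 (ENSG00000102265), inside SYN1 on the other strand with no exonic base shared. TIMP1 measured 335, 454 and 492 CPM in bile acid libraries 1 to 3 and 191, 665 and 221 CPM in control libraries 1 to 3. All 3 bile acid libraries were thus above control libraries 1 and 3 and below control library 2. Bile acid libraries averaged 427 ± 81.6 CPM and controls 359 ± 266 CPM (SD, n = 3 each). The log2 fold change was 0.25 (SE 0.48, 95% interval −0.87 to 1.37) without passing the threshold (edgeR, adjusted p = 0.937).

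Single controls decided this value. Without control library 2 the log2 fold change of TIMP1 was 1.06 (SE 0.18, 95% interval 0.65 to 1.47), against −0.046 without control library 1 and 0.005 without control library 3. It passed in DESeq2 (adjusted p = 9.5e-06) but edgeR made no call (adjusted p = 0.139), and over the 29 alternatives tried the adjusted p ran from 9.5e-06 to 1.00. DESeq2 then called 155 genes, 1.01% of 15302, and edgeR 1 gene, 0.00547% of 18274. TIMP1 and MMP19 then no longer overlapped between the groups, where 12.1% of genes had every bile acid library above control libraries 1 and 3 and 12.7% every one below. KRT8, KRT18 and VIM were also among the DESeq2 calls without that library, with log2 fold changes of 0.57, 0.63 and 0.67.

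Gene length moved with the value of control library 2. Relative to the mean of control libraries 1 and 3, the log2 CPM difference fell with gene length in that library, with rho = −0.502 (Spearman, across 12081 genes, which are not independent replicates), and in bile acid library 2 with rho = −0.474. In bile acid libraries 1 and 3 rho was 0.120 and −0.0531. TIMP1 is the shortest of the tested members, with 1541 bases, and 224 genes within 10% of that length had a median difference of 1.10 in control library 2, where TIMP1 itself differed by 1.69. In bile acid libraries 1 to 3 TIMP1 differed by 0.71, 1.14 and 1.26, while the median of those 224 genes was −0.093, 0.26 and 0.036. With the length trend of each library removed, TIMP1 had a log2 fold change of 0.57 over all 6 libraries (95% interval −0.19 to 1.34) without a call (edgeR, adjusted p = 0.882). It was 1.03 without control library 2 (adjusted p = 0.129 in edgeR). The other 6 tested members are 4419 to 5633 bases long, and genes of like length had medians between −0.16 and 0.016 in control library 2. Why that library differed was not tested.

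**Figure D3:**
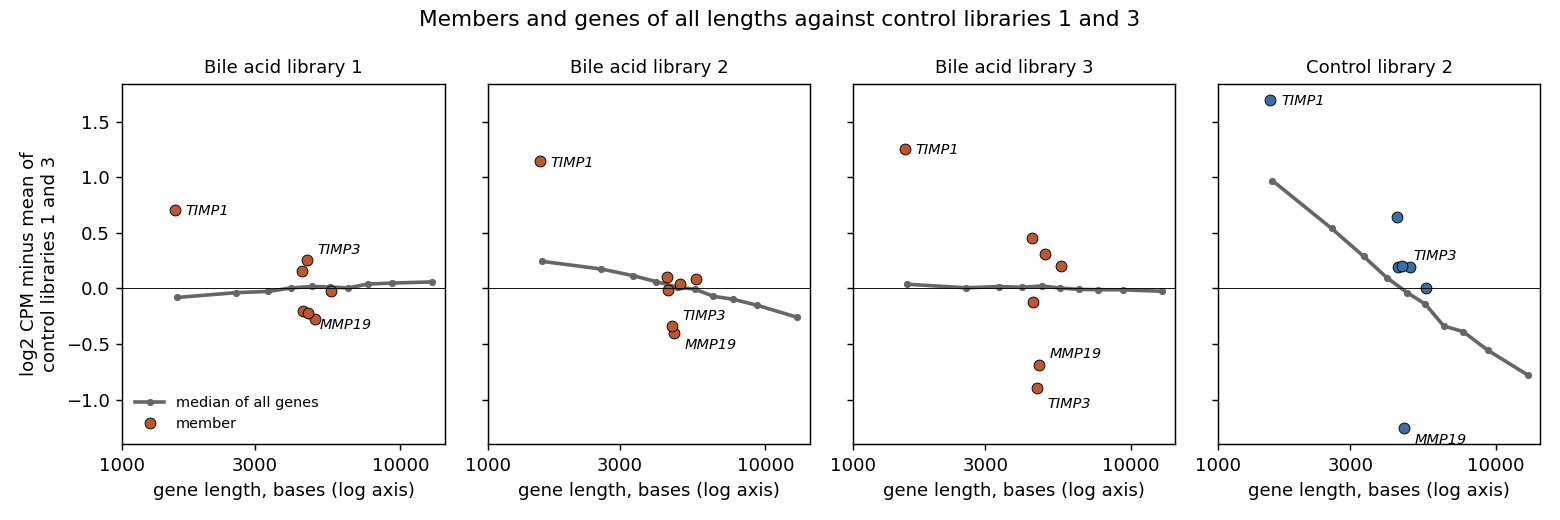
Difference in log2 CPM from the mean of control libraries 1 and 3, against gene length in bases on a log axis, for the 3 bile acid libraries and control library 2. The grey line joins the medians of 10 length classes of all genes averaging 5 CPM or more, and points are the 7 tested members. In control library 2 the line runs from 0.97 in the shortest class to −0.78 in the longest, with TIMP1 at 1.69 and MMP19 at −1.25.

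The stretch before the RefSeq start of TIMP1 is shown because TIMP1 was the one member called in any setting and because factors of the AP-1 family are known to act on MMP and TIMP genes. It lies at chrX:47582323-47582352, plus strand, GRCh38.p14, and the capitals mark TGAGTAA, a string close to the AP-1 consensus whose first base is 101 bases before that start. It falls inside the gene bounds of the deposited table, which begin farther upstream:

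TIMP1: atggtgggtggaTGAGTAAtgcatccagga

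RefSeq windows of 300 bases around the start were found for 5 members, MMP10, MMP14, MMP15, TIMP1 and TIMP3. The consensus itself, TGACTCA or TGAGTCA on either strand, was in 0 of these 5 windows and in 4.95% of 35116 promoter windows of that length. TGAGTAA on either strand, searched after the TIMP1 window had been seen, was in that of TIMP1 alone and in 2.57% of all. Such matches describe letters and not binding.

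TIMP2, which also docks the proenzyme of MMP2 on MMP14 at the cell surface, lies on chromosome 17, 78852977 to 78925387, minus strand. Its values were 245, 263 and 285 CPM in bile acid libraries 1 to 3 and 256, 248 and 240 CPM in control libraries 1 to 3. The SD of TIMP2 was 3.16% of the mean in control libraries, the lowest of the tested members. In bile acid libraries it was 7.73%, above the 6.61% of MMP14. Only bile acid libraries 2 and 3 exceeded all controls. The log2 fold change of TIMP2, 0.092 (SE 0.17), had a 95% interval of −0.30 to 0.49 and missed the threshold (edgeR, adjusted p = 0.935).

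TIMP3, which binds to the matrix and also inhibits ADAM and ADAMTS proteases, lies on chromosome 22, 32801701 to 32863043, plus strand, inside the gene SYN3 on the other strand, with which it shares no exonic base. It measured 38.1, 25.3 and 17.1 CPM in bile acid libraries 1 to 3 and 30.7, 36.8 and 33.1 CPM in control libraries 1 to 3. Bile acid library 1 was above every control and bile acid libraries 2 and 3 below every control. The log2 fold change of −0.32 (SE 0.30, 95% interval −1.02 to 0.37) missed the threshold in edgeR (adjusted p = 0.911). It was −0.66 without bile acid library 1 (unadjusted p = 0.0437, adjusted p = 1.00 in edgeR) and −0.076 without bile acid library 3 (adjusted p = 1.00 in edgeR), so that its size rested on single bile acid libraries.

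MMP14, the first membrane-type MMP, which activates the proenzyme of MMP2 and cuts collagen at the cell surface, lies on chromosome 14, 22836557 to 22849027, plus strand. It measured 81.0, 92.3 and 85.6 CPM in bile acid libraries 1 to 3 and 108, 107 and 80.4 CPM in control libraries 1 to 3. Bile acid values lay below control libraries 1 and 2 and above control library 3. The log2 fold change of −0.19 (SE 0.19, 95% interval −0.64 to 0.25) missed the threshold in edgeR (adjusted p = 0.911). The ratio of TIMP2 to MMP14 per length was 2.39, 2.26 and 2.64 in bile acid libraries 1 to 3 and 1.87, 1.84 and 2.37 in control libraries 1 to 3, so that it overlapped through control library 3.

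MMP15, another membrane-type MMP, lies on chromosome 16, 58025566 to 58046901, plus strand. It measured 25.2, 24.2 and 30.9 CPM in bile acid libraries 1 to 3 and 20.0, 35.1 and 25.4 CPM in control libraries 1 to 3, and the groups overlapped throughout. Its log2 fold change was −0.0017 (SE 0.25, 95% interval −0.59 to 0.58; edgeR, adjusted p = 0.999) and 0.25 without control library 2 (edgeR, adjusted p = 0.813).

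MMP2, or gelatinase A, which cuts denatured collagen and the collagen of basement membranes, lies on the same chromosome, 55389700 to 55506691, plus strand. It measured 6.70, 8.33 and 10.05 CPM in bile acid libraries 1 to 3 and 10.1, 9.30 and 6.48 CPM in control libraries 1 to 3. Both groups covered nearly the same range. The log2 fold change was −0.046 (SE 0.27, 95% interval −0.69 to 0.59; edgeR, adjusted p = 0.979).

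MMP19, which cuts components of the basement membrane, lies on chromosome 12, 55835433 to 55842966, minus strand. It measured 7.63, 6.73 and 5.49 CPM in bile acid libraries 1 to 3 and 9.81, 3.70 and 8.10 CPM in control libraries 1 to 3. Control library 2 was the lowest of all and the other controls were the highest. The log2 fold change was −0.13 (SE 0.38, 95% interval −1.01 to 0.76; edgeR, adjusted p = 0.957), and −0.43 without control library 2 (edgeR, adjusted p = 0.708). MMP19 shares 17.4% of its exonic bases with TMEM198B on the other strand, which had 226, 362 and 338 counts in bile acid libraries 1 to 3 and 259, 196 and 265 in control libraries 1 to 3. No source used here gives the strand setting of the counting, so reads of both genes cannot be told apart there. Of the other tested members, the exonic overlap with any single gene was at most 6.52%, that of TIMP2 with AC022966.1, and TIMP2 also shared 3.52% of its exonic bases with CEP295NL.

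**Figure D4:**
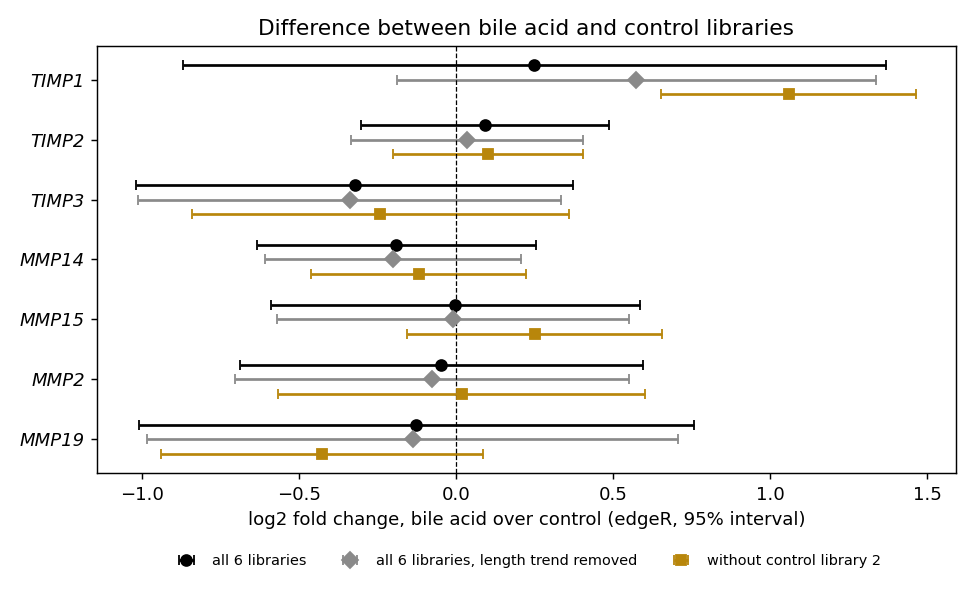
Log2 fold change of the 7 tested members, bile acid over control, with the 95% interval from edgeR, for all 6 libraries, for all 6 with the length trend removed, and without control library 2. The 7 intervals over all 6 libraries include 0, and TIMP1 without control library 2, at 0.65 to 1.47, is the single interval drawn that does not.

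The 3 secreted enzymes whose genes lie side by side on chromosome 11 were close to silent. MMP1, the interstitial collagenase, at 102789920 to 102798160, minus strand, had 7, 4 and 6 counts in bile acid libraries 1 to 3 and 3, 14 and 6 counts in control libraries 1 to 3, with control library 2 the highest. These correspond to 0.146 to 0.250 CPM in bile acid and 0.108 to 0.784 CPM in control libraries. MMP3, a stromelysin that activates other MMPs, at 102835801 to 102843803, minus strand, had 0 counts in all 3 bile acid libraries and 3, 0 and 0 in control libraries 1 to 3. MMP10, a second stromelysin, at 102770503 to 102780628, minus strand, had 0, 1 and 0 counts in bile acid libraries and 0, 0 and 2 in control libraries. These 3 genes did not pass the filter on low counts, so the main fit did not test them. With no filter, edgeR gave log2 fold changes of −0.82 (SE 1.06) for MMP1, −3.15 (SE 2.20) for MMP3 and −0.98 (SE 2.06) for MMP10. None was called (adjusted p = 0.851, 0.817 and 0.922 in edgeR). No bile acid library had more than 7 counts of any of them, so a large rise was not seen. Counts this low cannot resolve a decrease or a small difference. In bulk RNA, fewer cells that express a gene and less RNA per cell cannot be told apart.

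The rest of the family gave no call either. Of 17 other MMP and TIMP genes 8 were tested, 7 with a negative and 1 with a positive log2 fold change and a median of −0.36, and edgeR and DESeq2 called 0. The pair with the smallest p were MMP25, a membrane-anchored enzyme of leukocytes, at 0.624 ± 0.359 CPM in bile acid and 1.22 ± 0.599 CPM in control libraries, and MMP17, also membrane-anchored, at 23.9 ± 1.32 and 29.3 ± 7.48 CPM (SD, n = 3 each). Without control library 2 the median was −0.16, and the log2 fold changes were −0.56 for MMP25 and −0.060 for MMP17, against −0.95 and −0.30 with it. MMP8, MMP12, MMP20, MMP26 and MMP27 had 0 counts in all 6 libraries.

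Among 21 related ADAM and ADAMTS proteases 20 were tested, 13 with a positive value, with a median of 0.23, and 0 were called by either tool. ADAM28 measured 0.248 ± 0.126 CPM in bile acid and 0.614 ± 0.150 CPM in control libraries, and ADAMTS13, the protease of von Willebrand factor, 15.1 ± 1.70 and 19.4 ± 0.981 CPM (SD, n = 3 each). The median was 0.059 without control library 2.

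Of 18 genes whose products activate, induce, inhibit or clear MMPs, 16 were tested, 8 of them with a positive value and a median of 0.073, and 0 were called by edgeR or DESeq2. Without control library 2, 12 of 16 were positive with a median of 0.16. TFPI2, a matrix-bound inhibitor of serine proteases, measured 13.3, 14.3 and 14.8 CPM in bile acid libraries 1 to 3 and 6.47, 6.55 and 8.14 CPM in control libraries 1 to 3, without overlap, as for the 5.29% of tested genes with every bile acid library above every control library. The log2 fold change of TFPI2 was 1.00 (SE 0.21; adjusted p = 0.911 in edgeR and 0.0859 in DESeq2), and without control library 2 it was 0.97 and passed in DESeq2 (adjusted p = 0.00655) but not in edgeR (adjusted p = 0.204).

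Of 25 matrix substrates and cross-linkers 20 were tested, 18 with a positive value and a median of 0.32, and 0 were called by either tool. SPARC, a collagen-binding matrix protein, had the smallest p, at 172 ± 27.8 CPM in bile acid and 112 ± 28.6 CPM in control libraries, and COL1A1 followed at 178 ± 74.3 and 102 ± 79.3 CPM (SD, n = 3 each). Control library 2 was the lowest for both, and without it the list had a median of −0.027 with 9 of 22 values positive. The log2 fold changes were then 0.48 for SPARC and 0.44 for COL1A1, against 0.62 and 0.80 with it.

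Of 18 AP-1, ETS and RUNX factors known to act on MMP genes 17 were tested, 16 with a positive value. Their median was 0.65, beside −0.011 over all genes tested. edgeR called 0 and DESeq2 called FOS and JUNB, subunits of AP-1, both higher. All 18 genes that DESeq2 called, 0.101% of 17782, were higher. FOS measured 366, 60.1 and 144 CPM in bile acid libraries 1 to 3 and 22.1, 23.4 and 11.8 CPM in control libraries 1 to 3 (DESeq2, adjusted p = 6.2e-05). JUNB measured 185, 57.8 and 110 CPM with bile acid and 24.6, 32.6 and 18.4 CPM in control libraries (DESeq2, adjusted p = 0.00106). Without control library 2 the list had a median of 0.54, and DESeq2 called 3 of its genes, FOS, JUNB and the ETS factor ETV4 (adjusted p = 0.0293, 0.0103 and 0.0492 in DESeq2). Over all genes DESeq2 then called 1.01% of 15302. MMP1, MMP3 and MMP10, well known AP-1 targets in human cells, stood at 0 to 7 counts in the bile acid libraries and 0 to 14 counts in control libraries. Whether AP-1 acted on these genes was not tested.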

How the data were processed

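RNA of 3 bile acid and 3 control libraries was sequenced with paired reads of 150 bp, per the labels' protocols. The submitters' processing notes list GRCh38 as build and, as tools, DESeq2, featureCounts and HISAT2 2.0.5, and give no step for any of them. All 10 members have the coordinates of GENCODE 29. The deposited table holds whole-number counts per gene. The authors' FPKM rest on 1 denominator per library, which was 1.18 to 1.22 times the sum of the count table in 5 libraries and 0.999 times in control 2. FPKM were therefore not used for levels across libraries. They entered only the alternatives that fit FPKM with a pseudocount, where this denominator was not corrected. The deposited normalized counts are a signal equal to whole reads divided by 1 factor per library (100% of values whole within 0.001). These recovered reads are not the same as the count table. Their totals were 21876598 to 29667360, against 21006677 to 28497721. TIMP2 had 7805 recovered reads against 6857 counts in bile acid library 1, and 4640 against 4425 in control library 2. The authors' table of comparisons gives, per the file headers, a signal mean, log2 fold changes with errors, a test score and p-values, and its values are not printed here. The table of group means has 2 columns tied to no sample, which were not used.

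Tests used edgeR 4.0.16 (R 4.3.3) with filterByExpr, TMM factors and Benjamini-Hochberg adjustment over all genes, a threshold of 0.05 and no covariates. The standard error is the log2 fold change divided by the root of F, and the 95% interval uses the t quantile of the fit. DESeq2 1.42.0, limma 3.58.1, other scalings and filters, FPKM with a pseudocount, a length trend removed by lowess (span 0.3) and each library left out were alternatives. The scripts were tested on simulated data. The members and lists were chosen with earlier results of these data known. Named were all members and, of each list, genes called by edgeR or DESeq2, otherwise the 2 with the smallest edgeR p. A gene that this rule names is not reported here. The 95% intervals include the spread between libraries, while the floors cover counting error only.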

Additional observations from a re-analysis of the deposited data

How the results depend on the processing

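Of 203 member values under the 29 alternatives, 175 kept their direction and their side of the threshold, 27 changed sign and 1, TIMP1, passed. For MMP14, TIMP2 and TIMP3 0 changed sign. Over all genes the edgeR count of 0 became 18 with DESeq2 and 19 with DESeq2 on recovered reads, an alternative chosen after seeing the data. With 1 library left out edgeR called 0 to 1 genes and DESeq2 1 to 155, namely 15, 155 and 4 without controls 1, 2 and 3 and 1, 39 and 4 without bile acid libraries 1, 2 and 3, with 0 to 1 members among them. The log2 fold change of TIMP1 ran from −0.046 to 1.06 in edgeR, without controls 1 and 2, and was −0.025 in DESeq2 without control 1. That of MMP2 ran from −0.21 to 0.095 in edgeR, with DESeq2 values of 0.11, 0.019 and 0.11 without control 1, control 2 and bile acid library 1. That of MMP19 ran from −0.43 to 0.17 in edgeR, with DESeq2 values of 0.18 without control 1 and 0.0040 without bile acid library 3. That of MMP15, −0.0017 over all libraries, ran from −0.17 to 0.25 in edgeR, with DESeq2 values of 0.25, 0.059 and 0.087 without control 2, bile acid library 1 and bile acid library 2. MMP15 also stood at 0.016 with DESeq2, 0.017 with DESeq2 on recovered reads, 0.043 with limma-voom, 0.054 with library totals, 0.045 with no filter and 0.0036 on log2(FPKM + 0.1). With the length trend removed and without control 2, also added after seeing the data, MMP2 stood at 0.010 and MMP15 at 0.24. The cause was not tested. The median of all genes stood at 0.15 and 0.12 in DESeq2 without controls 1 and 3, where other settings kept it within 0.1 of 0.

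With the replicate block edgeR called 0 genes, TIMP1 had 0.48 and MMP15 0.029. With the length trend removed as well, TIMP1 had 0.66 (95% interval 0.0039 to 1.32, unadjusted p = 0.0490, adjusted p = 0.756 in edgeR) and MMP15 0.022. Same-numbered libraries correlated in their deviations from the group means at 0.307, 0.382 and 0.0979 across genes, and differently numbered ones at −0.413 to 0.189. As 1 of the 3 was under 0.1, the limit set for each, the numbers were not taken to pair the libraries. Deviations from a mean of 3 libraries depend on each other, so these correlations cannot tell whether the cultures were paired. Depth limits MMP1, MMP3 and MMP10, which had 17, 0 and 1 counts over the bile acid and 23, 3 and 2 over the control libraries.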

Other observations

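MMP24, a membrane-type MMP of neural tissue, measured 5.14, 5.41 and 3.72 CPM in bile acid libraries 1 to 3 and 6.43, 0.056 and 5.33 CPM in control libraries 1 to 3, so that control library 2 was far below the other 5. TIMP4, at 16.9, 21.8 and 14.0 CPM in bile acid libraries and 15.2, 39.9 and 17.9 CPM in control libraries, MMP11, at 17.7, 29.4 and 22.8 CPM and 22.2, 45.7 and 25.9 CPM, and MMP17 had their highest value in that library. These genes were picked after their values were seen.

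The deposited FPKM of control library 2 were computed over a denominator of 0.999 times its count total, against 1.18 to 1.22 times in the other libraries. Relative to the other libraries, its FPKM are therefore higher than its counts per library total, members included.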
